A study of Mus musculus with 33 samples.

Results

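The noncoding RNA genes Mir34a, Pvt1, Snhg15 and Trp53cor1 were examined for called peaks of p53 binding in mouse lymphomas. The members were all peaks overlapping a fixed mm9 window around each gene, which ran on chromosome 4 from 149400000 to 149460000 for Mir34a, on chromosome 15 from 61860000 to 62090000 for Pvt1, on chromosome 11 from 6415000 to 6440000 for Snhg15 and on chromosome 17 from 29180000 to 29215000 for Trp53cor1. The windows held 113 of the 102916 peaks in the 26 deposited lists, with 29 at Mir34a, 29 at Pvt1, 53 at Snhg15 and 2 at Trp53cor1. Merged where they shared at least 1 bp, these peaks formed 10 sites of 18927 in the whole series. The genes were chosen by the presence of p53 peaks in the activated lists (OHT, doxorubicin and (-)-Nutlin) against their controls, so the presence and extent of peaks after activation against control are given here as a description, with no test. Where the ranges of groups are said not to overlap, the share of all sites that do the same was not counted. Such a lack of overlap is therefore not read as particular to these loci.

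Binding of p53 had been mapped by chromatin immunoprecipitation and sequencing with the CM5p antibody in lymph node B cell lymphomas of C57/Bl6 mice carrying Eµ-myc, a transgene in which an immunoglobulin enhancer drives Myc in B cells. Tumours 1 to 4 were Trp53(KI/delta), with a knock-in (KI) allele over a deleted one, and their cells received 100 nM OHT (4-hydroxytamoxifen), which restores p53 function, or the solvent ethanol (EtOH) for 2 h. Tumours 5 to 7 were Arf-/- Trp53+/+, lacking the Mdm2 inhibitor Arf and keeping wild-type Trp53, and their cells received 1 µM doxorubicin, 5 µM (-)-Nutlin, 5 µM (+)-Nutlin, the solvents DMSO or water for 3 h, or no treatment. Doxorubicin damages DNA, and the Nutlins are mirror-image forms of a molecule whose (-) form blocks the hold of Mdm2 on p53. Each tumour gave 1 list per treatment, so the groups held 4 KI lists or 3 Arf lists, and lists of 1 tumour share their cells of origin. The cells were an unpurified suspension from lymph nodes, their age is not given in the sources used here, and peak lists hold no expression with which the cell type could be checked. In such bulk chromatin, binding in fewer cells and weaker binding per cell cannot be told apart.

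The p53 protein is a transcription factor that binds DNA as a tetramer at paired half-sites and switches on genes of cell cycle arrest and death. Part of that response runs through noncoding RNA. Mir34a encodes a microRNA that represses messengers of cell cycle and survival proteins, among them Cdk6 and Bcl2. Trp53cor1, also named lincRNA-p21, lies next to Cdkn1a, the gene of the cell cycle inhibitor p21, and is transcribed away from it. Pvt1 lies next to Myc, and a p53-dependent isoform of it lowers Myc transcription in mouse cells. Snhg15 is the host gene of a small nucleolar RNA.

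The mature microRNAs of Mir34a are shown because their seeds decide which messengers the locus acts on. Both come from the RefSeq table of build GRCm38.p6, chromosome 4, plus strand, and capitals mark the seed, bases 2 to 8.
mmu-miR-34a-5p: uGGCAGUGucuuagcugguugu
mmu-miR-34a-3p: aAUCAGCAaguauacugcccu
The seeds of the 2 arms differ, GGCAGUG in the 5p arm and AUCAGCA in the 3p arm. Of the 4 genes, 1 had an entry in the RefSeq promoter table. That promoter, of Snhg15, is shown because the Snhg15 window held the sole site of the 4 loci that was called in every list. It reads 5′ to 3′ on the minus strand of chromosome 11 in GRCm38.p6, from 250 bases before the start of transcription to 50 after it, and capitals mark CACGTG, the E-box bound by Myc.
Snhg15 promoter: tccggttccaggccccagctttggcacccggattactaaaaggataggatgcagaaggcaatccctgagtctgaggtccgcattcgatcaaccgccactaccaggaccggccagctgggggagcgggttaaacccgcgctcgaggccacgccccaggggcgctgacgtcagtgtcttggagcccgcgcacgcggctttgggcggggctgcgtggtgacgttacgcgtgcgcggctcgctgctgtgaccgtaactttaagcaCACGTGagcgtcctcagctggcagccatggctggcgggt
CACGTG, which reads the same on both strands, occurred 1 time, beginning at base 262 of the 300, and 7.15% of the 32851 RefSeq promoters of this length held it. The p53 half-site consensus had 0 exact matches in this stretch, against 8.36% of all promoters with at least 1. The peaks are in mm9 coordinates and the sequence in GRCm38.p6, so the place of this stretch relative to the peaks was not analysed here.

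The lists gave position and width of each peak and no height, and differed in kind. Narrow lists, 12 in number, had a smallest peak between 52 and 54 bp and a median width between 68 and 111 bp. Wide lists, 14 in number, had a smallest peak between 278 and 391 bp and a median between 417 and 552 bp. Narrow were the 4 EtOH lists and every list of tumours 6 and 7 except those of doxorubicin and (-)-Nutlin. List length ran from 116 peaks (EtOH, tumour 1) to 11346 (doxorubicin, tumour 5). Treated and control lists therefore differ in kind and length as well as in treatment. In tumour 5 all lists are wide, but length still differs, with 11346 peaks with doxorubicin and 10503 with (-)-Nutlin, against 1694 to 2696 in the other 4 lists. The part of list kind and length in any difference from control was not tested, and the values within tumour 5 are given beside each locus.

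At Snhg15, a p53 peak was called in every list, including all 4 EtOH lists of KI tumours, or 3 of 4 when peaks under 100 bp were left out. The site, merged over all lists, ran on chromosome 11 from 6425970 to 6429051 (mm9), 3082 bp in all. No EtOH list covered its high-coordinate part. Peaks covered 2589, 2146, 2141 and 1862 bp of it with OHT in tumours 1, 2, 3 and 4, against 547, 94, 193 and 253 bp with EtOH. The OHT and EtOH ranges did not overlap, and OHT exceeded EtOH by 1609 to 2052 bp in each of the 4 tumours. The means were 2185 ± 301 bp with OHT and 272 ± 195 bp with EtOH (SD, n = 4 each).

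In Arf tumours the same site was covered over 2638, 3019 and 2952 bp with doxorubicin in tumours 5, 6 and 7, and over 2882, 2640 and 2604 bp with (-)-Nutlin. Coverage was 2768, 1288 and 1248 bp with (+)-Nutlin, 2662, 1301 and 1302 bp with DMSO, 2506, 1532 and 1374 bp with water, and 2969, 1512 and 1177 bp in untreated cells. Activated lists of tumours 6 and 7 exceeded all other lists of the same tumour. In tumour 5 this was not so, since doxorubicin (2638 bp) and (-)-Nutlin (2882 bp) both stood below untreated cells (2969 bp). The order of the group means was doxorubicin (2870 ± 203 bp), (-)-Nutlin (2709 ± 151 bp), untreated (1886 ± 953 bp), water (1804 ± 613 bp), (+)-Nutlin (1768 ± 866 bp) and DMSO (1755 ± 785 bp; SD, n = 3 each). All adjacent groups in this order overlapped in range, (-)-Nutlin and untreated cells through tumour 5 alone.

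The Snhg15 site stood among the widest peaks of the genome in lists of most states. Its widest peak ranked second of 4102 peaks with OHT in tumour 1, and 13, 45 and 64 by width with OHT in tumours 2, 3 and 4. With doxorubicin the ranks were 5, 7 and 4, and with (-)-Nutlin 3, 10 and 4, in tumours 5, 6 and 7. Ranks were as high in unactivated lists of tumour 5, at 5 of 2351 with (+)-Nutlin, 5 of 1694 with DMSO, 17 of 2206 with water and 3 of 2696 in untreated cells. In the unactivated lists of tumours 6 and 7 they ran from 33 of 742 (untreated, tumour 7) to 86 of 2180 (untreated, tumour 6). The site was in the widest 5% in all 10 activated lists and in 10 of 12 unactivated Arf lists, those of (+)-Nutlin, DMSO, water and untreated cells. In EtOH lists the rank was 29 of 116, 35 of 186, 36 of 742 and 9 of 367. Of all 18927 sites, 9 were called in every list, which is 0.0476%.

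The Snhg15 site was split at near-constant places in the narrow lists of Arf tumours. All 8 narrow lists of Arf tumours showed a left peak ending between 6426936 and 6426938, a middle peak of 82 to 88 bp running from 6427086 to 6427090 at its start to 6427171 to 6427173 at its end, and a right peak starting at 6427252 or 6427253. The gaps measured 147 to 152 bp and 78 to 81 bp. The EtOH list of tumour 1 had gaps of 204 and 92 bp in the same stretch, at other bases, and the EtOH lists of tumours 2, 3 and 4 had 1 unsplit peak to the right of it. No wide list was interrupted there, and the 94 bp from 6427355 to 6427448, in the right peak, were covered in all 26 lists. Coverage was not shared by all lists further right, from 1140 to 1473 bp beyond the centre of those 94 bp. There it was 100% of OHT, doxorubicin and (-)-Nutlin lists, 33.3% of unactivated Arf lists and 0% of EtOH lists.

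At Mir34a, a peak was called in every list except those of EtOH. The EtOH lists hold 116 to 742 peaks, and weak binding under the calling threshold, which is not known, would not be seen in them. The leading site ran on chromosome 4 from 149421446 to 149423990, 2545 bp in all, and was called in 4 of 4 OHT lists, 0 of 4 EtOH lists and all 18 lists of Arf tumours. OHT lists covered 1949, 1470, 1094 and 528 bp of it in tumours 1, 2, 3 and 4, against 0 bp in each EtOH list. Coverage in tumour 1 came from 3 peaks and in tumour 2 from 2, while tumours 3 and 4 had 1 peak each. Tumour 4 was the low list, with a peak of 528 bp that ranked 2950 of 9738 by width, whereas the ranks were 133, 52 and 177 in tumours 1, 2 and 3.

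Doxorubicin lists covered 1734, 2470 and 2336 bp of the Mir34a site in tumours 5, 6 and 7, and (-)-Nutlin lists 1503, 1414 and 1483 bp. Coverage was 1513, 832 and 559 bp with (+)-Nutlin, 1179, 799 and 565 bp with DMSO, 1333, 1158 and 558 bp with water, and 1222, 1090 and 494 bp in untreated cells. Doxorubicin exceeded water in all 3 tumours, by 401 to 1778 bp, and by the least in tumour 5. (-)-Nutlin exceeded DMSO by 324 to 918 bp in all 3, but stood 10 bp below (+)-Nutlin in tumour 5. In order, the means were 2180 ± 392 bp with doxorubicin, 1467 ± 47 bp with (-)-Nutlin, 1016 ± 406 bp with water, 968 ± 491 bp with (+)-Nutlin, 935 ± 388 bp untreated and 848 ± 310 bp with DMSO (SD, n = 3 each). Doxorubicin and (-)-Nutlin did not overlap, (-)-Nutlin and water did not overlap, and the last 4 groups overlapped one another.

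At Pvt1 the pattern of lists was that of Mir34a, with the leading site called in 4 of 4 OHT lists, 0 of 4 EtOH lists and all 18 Arf lists. The site lay near the low-coordinate end of the window, on chromosome 15 from 61870121 to 61871524, and measured 1404 bp. OHT lists covered 1196, 833, 670 and 591 bp of it in tumours 1, 2, 3 and 4, against 0 bp in each EtOH list. Doxorubicin lists covered 1269, 1404 and 1176 bp in tumours 5, 6 and 7, and (-)-Nutlin lists 1045, 939 and 872 bp. The remaining Arf lists covered 907, 863 and 62 bp with (+)-Nutlin, 915, 520 and 387 bp with DMSO, 984, 904 and 307 bp with water, and 807, 722 and 300 bp in untreated cells. In each Arf tumour, tumour 5 included, both activated lists exceeded the 4 others, although across tumours (-)-Nutlin overlapped with water, DMSO and (+)-Nutlin.

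In order, Pvt1 coverage averaged 1283 ± 115 bp with doxorubicin, 952 ± 87 bp with (-)-Nutlin, 732 ± 370 bp with water, 611 ± 476 bp with (+)-Nutlin, 610 ± 272 bp untreated and 607 ± 275 bp with DMSO (SD, n = 3 each). Doxorubicin stood apart from (-)-Nutlin, and every other adjacent pair overlapped. The list of tumour 7 with (+)-Nutlin was the lowest, with 1 peak of 62 bp that ranked 594 of 707 by width. Leaving out peaks under 100 bp removed it, so that 11 of 12 unactivated Arf lists had the site. Pvt1 peaks ranked from 89 of 4102 (OHT, tumour 1) to 1999 of 9738 (OHT, tumour 4) in activated lists, lower than Snhg15 in every one of them.

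The Trp53cor1 window held the fewest peaks. Its 2 peaks, of 433 and 437 bp, came from the OHT lists of tumours 3 and 4 and formed 1 site on chromosome 17 from 29208725 to 29209185. They ranked 6483 of 10084 and 5260 of 9738 by width, and no Arf list and no EtOH list had a peak in the window. Within the window, then, p53 peaks were absent from all but 2 lists. The first site beyond its high-coordinate edge, 84 bp away on chromosome 17 from 29215084 to 29216720, was called in 23 lists. It was chosen for description with its values already known, is not counted as a member, and could not be placed relative to the start of Trp53cor1, for which no mm9 annotation was used here.

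At that site beyond the edge, OHT lists covered 1445, 1076, 1209 and 729 bp in tumours 1, 2, 3 and 4, against 500 bp with EtOH in tumour 1 and 0 bp with EtOH in the other 3. Doxorubicin lists covered 1099, 1576 and 1098 bp in tumours 5, 6 and 7, and (-)-Nutlin lists 760, 744 and 841 bp. Coverage was 797, 669 and 279 bp with (+)-Nutlin, 641, 428 and 597 bp with DMSO, 700, 720 and 191 bp with water, and 636, 864 and 87 bp in untreated cells. OHT and EtOH did not overlap. In tumours 5 and 6, 1 other list stood above (-)-Nutlin, (+)-Nutlin in tumour 5 and untreated in tumour 6. The other sites next to the windows lay further off, 1155 bp beyond Mir34a with peaks in 6 lists and 6242 bp beyond Snhg15 with peaks in 2. Before the Trp53cor1 window a site called in 10 lists lay 10057 bp away.

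**Figure D1:**
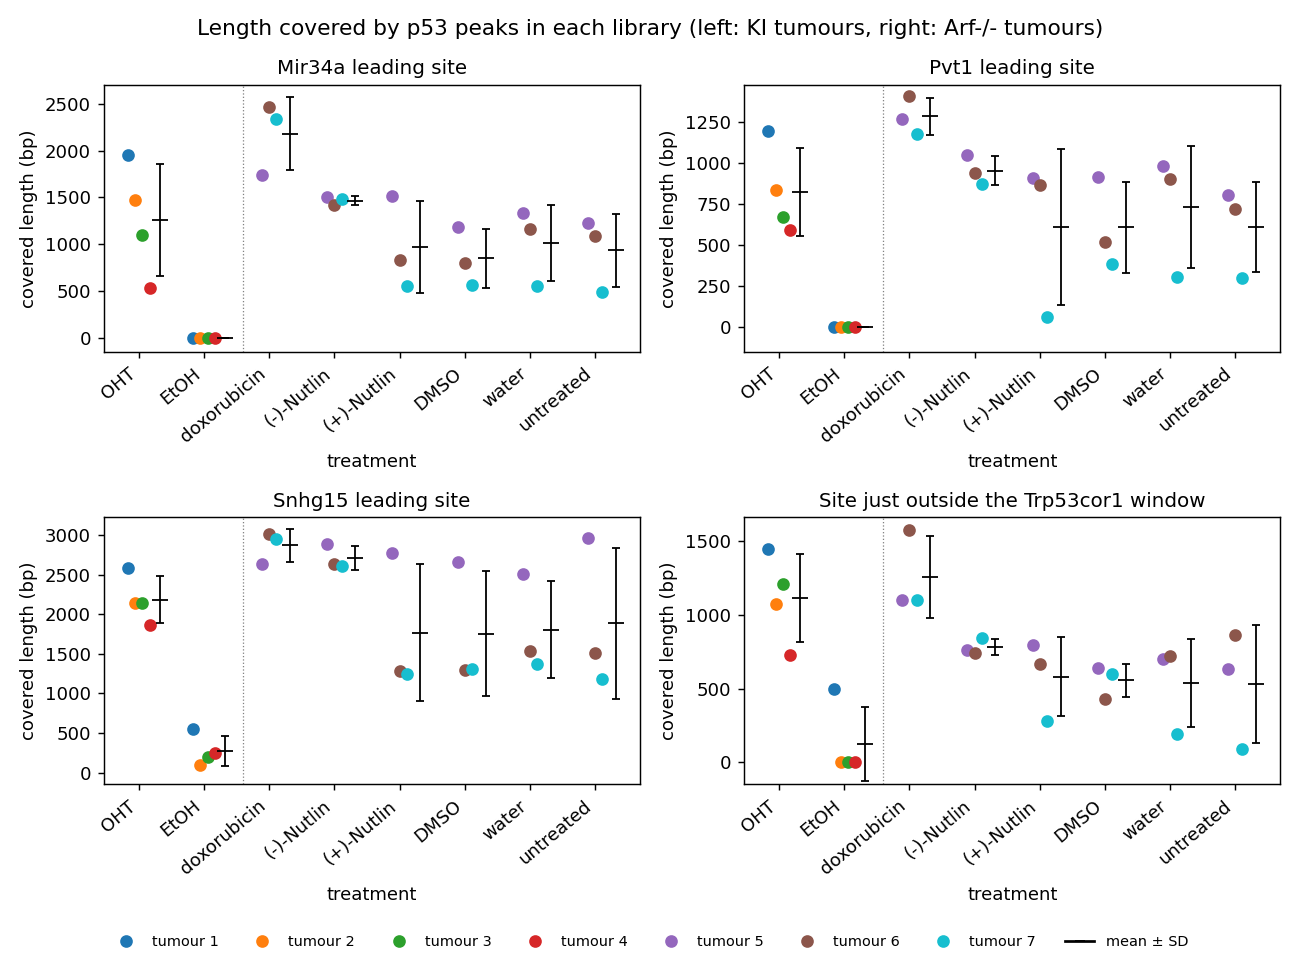
Length in bp covered by p53 peaks (vertical axis) in each library, by treatment (horizontal axis), at the leading sites of Mir34a, Pvt1 and Snhg15 and at the site 84 bp outside the Trp53cor1 window; points are tumours, and black marks give mean ± SD (n = 4 for OHT and EtOH, 3 for the others). The 4 OHT points lie above the 4 EtOH points in each panel, EtOH is at 0 bp in every tumour at Mir34a and Pvt1, and tumour 5 stays at 2506 bp or above at Snhg15 in all 6 lists.

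The remaining 6 sites in the windows were each called in 1 list. At Mir34a these were a peak of 737 bp with doxorubicin in tumour 6 and a peak of 301 bp with (-)-Nutlin in tumour 6. Pvt1 had 3, all with doxorubicin, of 314 bp in tumour 5 and of 444 and 715 bp in tumour 6. Snhg15 had 1 of 326 bp with OHT in tumour 1. All of them came from activated lists, which hold 3597 to 11346 peaks, against 116 to 2696 in the other lists. The share of single-list sites in activated lists over the whole series was not counted, and nothing is read from this.

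The bases shared between lists placed each site more closely than its full extent. At Mir34a all 22 lists with a peak shared the stretch from 149422981 to 149423286, 306 bp, with a second, shorter stretch beside it. At Pvt1 the 22 lists shared 57 bp, from 61870729 to 61870785. At the site beyond the Trp53cor1 edge 23 lists shared 48 bp, from 29215950 to 29215997. The 10 activated lists alone shared 528 bp at Mir34a, 591 bp at Pvt1 and 1178 bp at Snhg15.

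**Figure D2:**
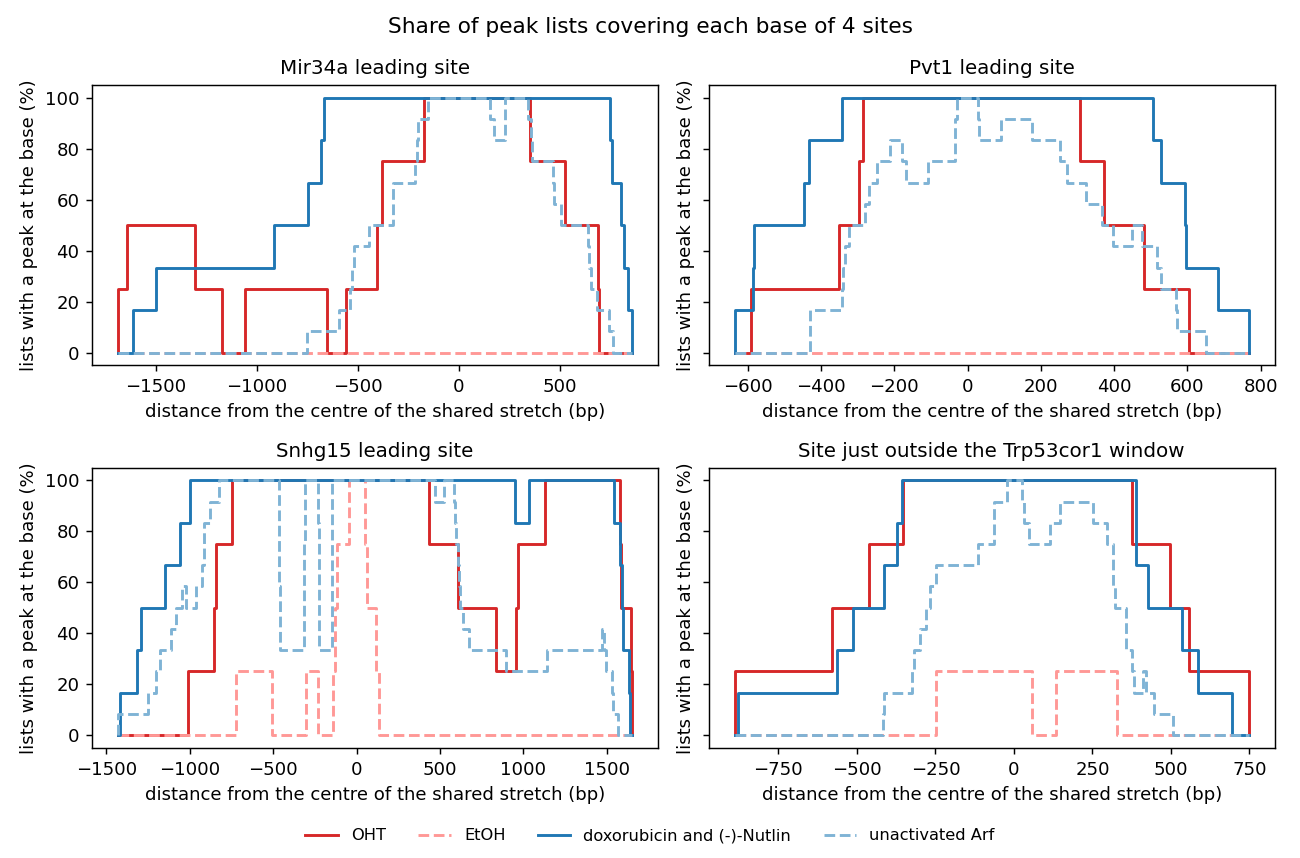
Percentage of lists with a peak at each base (vertical axis) against distance in bp from the centre of the stretch shared by most lists (horizontal axis), for OHT (4 lists), EtOH (4), doxorubicin and (-)-Nutlin (6) and unactivated Arf tumours (12: (+)-Nutlin, DMSO, water and untreated). At Snhg15 the unactivated line drops at both gaps left of the centre while the activated lines stay at 100%, and EtOH appears in the Snhg15 panel and, from 1 list, at the site outside the Trp53cor1 window.

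Set against each group's own control, a region counted as gained when it was called in every treated list and in no control list. With OHT over EtOH, 2 of 7 regions in the windows were gained, the leading sites of Mir34a and Pvt1, beside 9.31% of the 12799 regions called in KI tumours. With doxorubicin over water it was 0 of 7, beside 18.1% of 15038 regions. With (-)-Nutlin over DMSO it was 0 of 4, beside 27.9% of 12661, and with (-)-Nutlin over (+)-Nutlin 0 of 4, beside 23.6% of 12660. In Arf tumours the leading sites of Mir34a, Pvt1 and Snhg15 were called in all control lists as well. Nothing is read from these shares, because the contrasts were in view when the genes were chosen. Allowing 1 list of each group to differ raised the number over all regions but added no leading site of the 4 loci in Arf tumours.

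The mirror-image Nutlins were compared with DMSO and each other at the same dose and time. Length covered in the window was 968 ± 491 bp with (+)-Nutlin and 848 ± 310 bp with DMSO at Mir34a, 611 ± 476 and 607 ± 275 bp at Pvt1, and 1768 ± 866 and 1755 ± 785 bp at Snhg15 (SD, n = 3 each). The differences, (+)-Nutlin minus DMSO, were 120 bp with a paired 95% interval from -342 to 583 bp at Mir34a, 3.33 bp with an interval from -827 to 833 bp at Pvt1, and 13.0 bp with an interval from -193 to 219 bp at Snhg15. Two-sided exact permutation p-values were 0.7, 1 and 1, and each was 1 after Benjamini-Hochberg adjustment over the 3 windows tested. The smallest p that 3 against 3 lists allow is 0.1, and the Trp53cor1 window had no peak in these lists and was not tested. (+)-Nutlin was the higher in 2 of 3 tumours at Mir34a and in 1 of 3 at Pvt1 and at Snhg15. The mean excess of (-)-Nutlin over DMSO was 954 bp at Snhg15, 619 bp at Mir34a and 345 bp at Pvt1. These means are a description without intervals, since that contrast was in view when the genes were chosen. In tumours 6 and 7 these means set wide (-)-Nutlin lists against narrow DMSO lists, while (+)-Nutlin and DMSO lists were both narrow. In tumour 5, where all lists are wide, the excess was 220 bp at Snhg15, 324 bp at Mir34a and 130 bp at Pvt1. A value from 1 tumour cannot be set against an interval for a mean of 3. The intervals therefore cannot decide whether (+)-Nutlin lacks the effect of the (-) form.

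Between the Nutlin forms, (-)-Nutlin exceeded (+)-Nutlin by 76 to 810 bp at Pvt1 and by 114 to 1356 bp at Snhg15, in 3 of 3 tumours at both loci. At Mir34a it did so in 2 of 3 tumours, with differences from -10 to 924 bp. The contrast of active and inactive forms was in view when the genes were chosen, and no test is given. Within tumour 5, where both lists are wide, the differences were -10 bp at Mir34a and 114 bp at Snhg15, the smallest of the 3 tumours at both, and 1045 bp stood against 907 bp at Pvt1, where the smallest difference, 76 bp, was in tumour 6.

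Peak width was then tested between activated states, where all lists are of the wide kind and the presence of a peak is not at issue. Over the 3206 regions called in all 6 doxorubicin and (-)-Nutlin lists, limma on log2 width of the widest peak found 32 regions wider with doxorubicin, 0.998%, and 0 narrower, 0%, at an adjusted p under 0.05. The median region was wider with doxorubicin by 0.23 on the log2 scale. Mir34a had peaks of 1734, 2470 and 2336 bp with doxorubicin, against 1503, 1414 and 1483 bp with (-)-Nutlin in tumours 5, 6 and 7, a log2 difference of 0.56 ± 0.22 (SE) with a limma adjusted p of 0.125. At Pvt1, 1269, 1404 and 1176 bp stood against 1045, 939 and 872 bp, a log2 difference of 0.43 ± 0.21 with an adjusted p of 0.201. The doxorubicin and (-)-Nutlin ranges did not overlap at either locus. Of all regions tested, 72.5% were wider with doxorubicin, and the share without overlap was not counted. With widths centred on each list's median the log2 differences were 0.30 at Mir34a and 0.18 at Pvt1. At Snhg15 the ranges overlapped, with widest peaks of 2638, 3019 and 2952 bp against 2882, 2096 and 2604 bp. The log2 difference there was 0.19 ± 0.21, with an adjusted p of 0.649.

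Thus none of the 3 leading sites passed the limma test, and their 95% intervals ran from 0.09 to 1.02 at Mir34a, from -0.01 to 0.88 at Pvt1 and from -0.27 to 0.65 at Snhg15 on the log2 scale. Of all regions tested, 78.5% had a lower difference than Mir34a, 68.0% than Pvt1 and 46.8% than Snhg15. With the tumours paired as a block, limma called 388 regions wider and 6 narrower over the whole table, and the adjusted p became 0.125 at Mir34a, 0.261 at Pvt1 and 0.712 at Snhg15. That fit gave all 3 sites the same standard error, 0.251. Its calls thus rest on a spread pooled over all regions, not on each region's own. Over the alternatives tried the adjusted p ranged from 0.119 to 0.593 at Mir34a, from 0.125 to 0.650 at Pvt1 and from 0.510 to 0.958 at Snhg15. Without tumour 6 the number wider was 0, with 699 regions at an unadjusted p under 0.05, and without tumour 5 it was 289. The standard errors without tumour 5 were also near equal, 0.307 to 0.308 at the 3 sites. The site beyond the Trp53cor1 edge had 1099, 1576 and 1098 bp with doxorubicin, against 760, 744 and 841 bp with (-)-Nutlin, a log2 difference of 0.67 ± 0.22 with an adjusted p of 0.0884.

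Restored KI p53 was set against activated wild-type p53 over the 1092 regions called in all 10 activated lists, with the doxorubicin and (-)-Nutlin values of each Arf tumour averaged, which gave 4 tumours against 3. Limma called 1 region wider with OHT, 0.0916%, and 147 narrower, 13.5%, and the median log2 difference over all regions was -0.11. Mir34a was among the narrower, with widest peaks of 1074, 1087, 1094 and 528 bp with OHT in tumours 1 to 4, all below the 6 doxorubicin and (-)-Nutlin peaks of 1414 to 2470 bp. Its log2 difference was -0.97 ± 0.27 (SE) with a limma adjusted p of 0.0179, the OHT tumours being lower in 4 of 4. The exact permutation p, which is not adjusted, was 0.0286, the smallest that 4 against 3 tumours allow. The share of the 1092 regions with such a lack of overlap was not counted. Snhg15, with 2589, 1689, 1451 and 1178 bp with OHT against 2096 to 3019 bp, had a log2 difference of -0.70 ± 0.26 and an adjusted p of 0.0878. Pvt1, with 1196, 833, 670 and 591 bp against 872 to 1404 bp, had -0.48 ± 0.25 and an adjusted p of 0.335. Neither passed the test, and both overlapped in range. At Snhg15 the log2 difference was -0.43 with peaks merged within 500 bp and -0.36 with all covered bases in place of the widest peak, the second an alternative added after seeing the data.

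The call at Mir34a depended on how its peaks were counted. OHT lists of tumours 1 and 2 held further peaks at this site, and with all covered bases the log2 difference was -0.65 with an adjusted p of 0.265. With widths centred on each list's median it was -0.83 with an adjusted p of 0.104, and with peaks merged within 500 bp -0.69 with an adjusted p of 0.334. Over this result's alternatives the adjusted p ranged from 0.0109 to 0.334, and it was above 0.05 without tumour 6 (0.102) and without tumour 7 (0.109). The site beyond the Trp53cor1 edge had 1445, 1076, 1209 and 729 bp with OHT against 744 to 1576 bp, a log2 difference of 0.14 ± 0.25 with an adjusted p of 0.940. Without tumour 1 the adjusted p was 0.00888 at Snhg15 and 0.0495 at Pvt1, where it ranged over the alternatives up to 0.496 and 0.695. Genotype, agent and time differ together in this comparison and cannot be told apart.

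**Figure D3:**
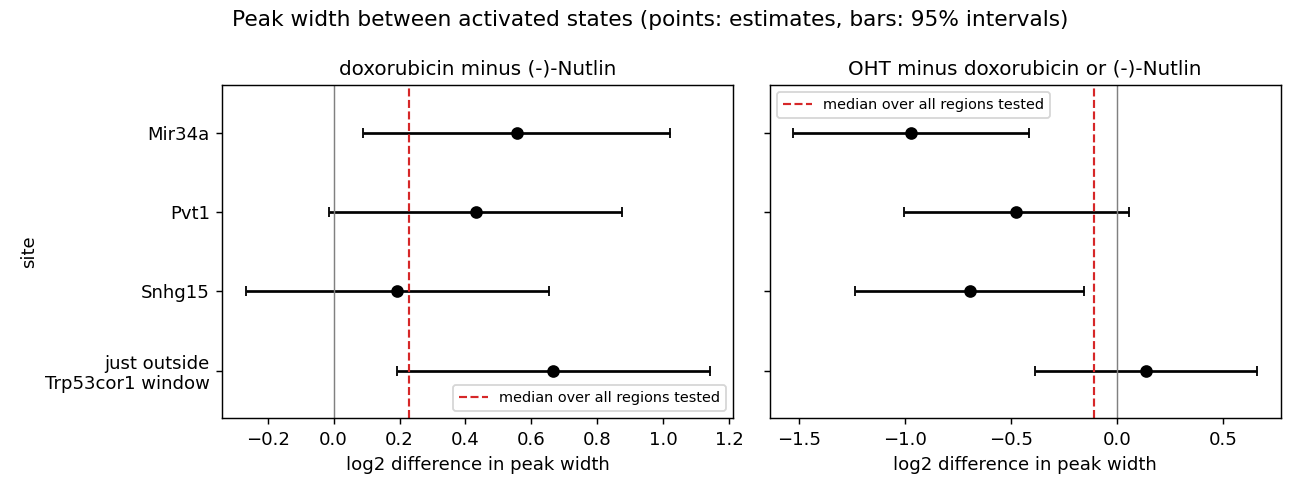
Log2 difference in the width of the widest peak (horizontal axis) at the leading sites of Mir34a, Pvt1 and Snhg15 and at the site outside the Trp53cor1 window (vertical axis), for doxorubicin minus (-)-Nutlin (3 lists each) and OHT minus the mean of doxorubicin and (-)-Nutlin per tumour (4 against 3 tumours); points are limma estimates, bars 95% intervals, the dashed line the median over all regions tested. Mir34a lies at 0.56 in the left panel and at -0.97 in the right one.

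Other regions shared the list patterns of these loci. The 22 lists that had a peak at Mir34a were the same 22 as at Pvt1, and 152 of the 18927 sites, 0.803%, were called in exactly these lists. The pattern of the Trp53cor1 window, OHT in tumours 3 and 4 alone, was shown by 289 sites, 1.53%. By Spearman correlation of covered length over the 26 lists, which share tumours and list kinds, the sites most like Mir34a tied at a rho of 0.968 and lay on chromosome 2 (165613419 to 165616339) and chromosome 8 (13548360 to 13549903), followed by chromosome 11 from 120090206 to 120092370 (rho 0.966). Most like Pvt1 were sites on chromosome 7 from 108091515 to 108093192 (rho 0.951) and on chromosome 11 from 109755260 to 109756832 (rho 0.943), and the third was the Mir34a site itself (rho 0.942). Snhg15 was nearest to sites on chromosome 10 from 127398400 to 127399792 (rho 0.965), chromosome 3 from 93346908 to 93349166 (rho 0.961) and chromosome 2 from 114003549 to 114006314 (rho 0.957), each called in 22 lists. The last of these tied with 1 further site, and was named for its smaller difference in covered length. For the Trp53cor1 window 114 sites had a rho of 1, so no site was closest. These values describe the 26 lists and carry no test.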

How the data were processed

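The 26 ChIP lists were used as the authors deposited them: peak positions in base pairs on the genome, 1 list per library, with no score or signal. Per the submitters' processing notes, BWA 0.6.2 and SAMtools were used with build mm9. Which program called peaks, at what threshold, and how the 7 input libraries entered is not given in the sources used here; read depth is unknown. Per the labels' protocols, chromatin fragments averaged 250 bp. Positions are printed counted from 1.

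The members and lists were chosen with earlier results of these data known. Sites were merged over all 26 lists where peaks shared at least 1 bp, and within each comparison over its own lists. The leading site of a locus was the one called in most lists, and sites in at least 5 lists were described in full. The 3 sites most alike were named by position. Covered length is the sum of peak widths at a site.

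Groups came from the titles, whose tumour numbers mark cells of the same lymphoma and so pair the lists. Deviations of log2 width from the group means correlated at 0.0458, -0.141 and 0.142 between doxorubicin and (-)-Nutlin lists of tumours 5, 6 and 7. Between lists of different tumours the correlations ran from -0.223 to 0.151. Tests were limma 3.58.1 in R 4.3.3 with Benjamini-Hochberg adjustment over all regions tested, and two-sided exact permutation tests in Python 3.11.15. The code was tested on simulated lists. P-values measure the spread between tumours, which limma shared in part over regions, and wholly with the block. For (+)-Nutlin against DMSO that spread includes list kind, wide in tumour 5 and narrow in tumours 6 and 7. Alternatives were other peak filters, windows, merging, scaling, the block and leaving out tumours. A list of further p53-bound noncoding genes was not used, since no mm9 annotation was used here.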

Additional observations from a re-analysis of the deposited data

Results flagged for a closer look

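Among the 4 OHT lists, the widest peak at the Mir34a site was 528 bp in tumour 4, apart from 1074, 1087 and 1094 bp in the others, a gap that was 0.965 of the whole range. Among the 4 EtOH lists, the site beyond the Trp53cor1 edge had peaks in tumour 1 alone, covering 500 bp with a widest peak of 306 bp, against 0 bp in tumours 2, 3 and 4. These were samples far from the others of their group, 3 flags in 14 groups of 4 values looked at. Chance flags about 1 in 20 groups, a rate that does not apply to the EtOH values, where 3 lists at 0 bp give a flag whatever the fourth value is. The flags on covered length and widest peak of the same list are not separate.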

How the results depend on the processing

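With windows widened by 10 kb, Trp53cor1 had a peak in 4 OHT, 3 doxorubicin, 3 (-)-Nutlin, 1 EtOH and 12 unactivated Arf lists, in place of 2, 0, 0, 0 and 0, through the site 84 bp beyond its edge; counts at the other loci did not change. With peaks of at least 100 bp, Snhg15 had a peak in 3 EtOH lists in place of 4 and Pvt1 in 11 unactivated Arf lists in place of 12. Gained regions over the whole table became 3791 (OHT over EtOH), 8195 (doxorubicin over water), 8268 ((-)-Nutlin over DMSO) and 8193 ((-)-Nutlin over (+)-Nutlin) when 1 list of each group could differ. With 1 tumour left out they ranged from 1370 to 2201, highest without tumour 1 (2201) and tumour 2 (2030), from 3139 to 5705, highest without tumour 6 (5705) and tumour 5 (4602), from 3880 to 6872 and from 3350 to 6215, both highest without tumour 7. The gained regions in the windows stayed at 2 or 3 with OHT and at 0 in the other contrasts.

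Covered length, (+)-Nutlin minus DMSO, changed sign per Mb covered by the list (-32.1 bp at Mir34a, -276 bp at Pvt1, -331 bp at Snhg15), at Pvt1 with peaks of at least 100 bp (-9.67 bp), at Pvt1 without tumour 6 (-166.5 bp, range -166.5 to 167.5) and at Snhg15 without tumour 5 (-33.5 bp, range -33.5 to 46.5). With the replicate block, exact sign-change p-values were 0.5 at Mir34a and 1 at Pvt1 and Snhg15, where 3 pairs allow 0.25.

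Regions called wider with doxorubicin by limma numbered 3 with centred widths, 12 with peaks in at least 2 lists of each group, 19 with peaks merged within 500 bp, 388 with the replicate block and 0 (tumour 6) to 289 (tumour 5) with 1 tumour left out, 16 without tumour 7. Regions called narrower numbered 6 with the block and 0 to 4 with 1 tumour left out. The calls with the block rest on a spread pooled over all regions. With centred widths the median log2 difference was -0.02, in place of 0.23, and Snhg15 changed sign (-0.060). Regions called wider with OHT numbered 5 with centred widths, 12 with peaks in at least 2 lists, 0 with merging and 0 to 11 with 1 tumour left out (11 without tumour 4). Regions called narrower numbered 53 with centred widths, 301 with peaks in at least 2 lists and 32 (tumour 7) to 241 (tumour 4) with 1 tumour left out, 69 without tumour 6.

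At Mir34a the log2 difference, OHT minus activated Arf, lost its call with centred widths (-0.83), with peaks in at least 2 lists (-0.97, adjusted p 0.0508), with merging (-0.69), with all covered bases (-0.65) and without tumour 6 or 7; with 1 tumour left out it ranged from -1.06 to -0.71. Without tumour 1 it became a call at Pvt1 (-0.67, range with 1 tumour left out -0.67 to -0.33) and Snhg15 (-0.91, range with 1 tumour left out -0.91 to -0.53), and the site beyond the Trp53cor1 edge changed sign (-0.0013, range -0.0013 to 0.33). The cause was not tested. No read counts came with the lists, so weak binding under the unknown threshold was not detectable. Pairing OHT with Arf tumours was not possible because they share no tumour.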
